A study of Mus musculus with 10 samples.

Results

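The cell cycle genes described here are 37 genes chosen by name: the D, E, A and B cyclins, their cyclin-dependent kinases (CDKs), the Mcm helicase genes and Pcna, mitotic kinases and proliferation markers, CDK inhibitors, the E2F and pocket protein genes, and Wee1. They are 37 of 56748 gene identifiers in the count tables, and all 37 were found there. Their messenger RNA was measured in whole hearts, atria and ventricles together, of wild-type male C57BL/6 mice bought at 8 weeks of age. The training group was 5 mice that ran on a treadmill for 8 weeks, for 120 min per session on 5 days per week at 15 m/min, a forced exercise model of physiological cardiac hypertrophy. The sedentary group was 5 mice of the same age that did not train. A library was made from each heart, so the 10 libraries were 10 animals, and the reads of all heart cell types were counted together. The comparison asked which parts of the cell cycle programme differed between training and sedentary hearts, and in particular whether genes of G1 and replication licensing were set apart from mitotic genes and CDK inhibitors.

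A cell enters the cycle when D cyclins with Cdk4 or Cdk6, and then cyclin E with Cdk2, phosphorylate the pocket proteins, which releases E2F transcription factors. E2F factors switch on genes that load the Mcm2-7 helicase at replication origins and copy DNA, while a later wave of genes, read from promoters with CHR and CCAAT elements, carries the cell through mitosis with cyclin B and Cdk1. Adult cardiomyocytes have largely left the cycle, grow mainly by enlarging, and hold high levels of CDK inhibitors, so that most dividing cells of an adult heart belong to other cell types.

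The promoters of 3 members are shown because they carry the letters of these regulators, and because Mcm6 and Ccnb2 had the smallest unadjusted p-values of their sets apart from Mcm4. Sequences are from RefSeq on GRCm38.p6, 250 bases before to 50 after the start, 5′ to 3′ on the gene's strand. Capitals mark E2F letters (TTTCCCGC, TTTGGCGC, TTTCGCGC or TTTGCCGC), the CHR letters TTTGAA and the CCAAT box letters CCAAT, each searched on both strands, so that ATTGG is a CCAAT box read on the other strand. Overlapping matches were each counted, as in Mcm6, where TTTGGCGC and GCGCGAAA share bases.
Mcm6, minus strand of chr1:128359656-128359955: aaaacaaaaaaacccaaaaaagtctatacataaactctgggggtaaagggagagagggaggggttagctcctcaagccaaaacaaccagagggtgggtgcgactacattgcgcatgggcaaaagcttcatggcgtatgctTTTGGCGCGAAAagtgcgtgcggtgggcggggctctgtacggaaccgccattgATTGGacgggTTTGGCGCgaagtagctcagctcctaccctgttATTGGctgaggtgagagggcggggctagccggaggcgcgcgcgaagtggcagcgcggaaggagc
Ccnb2, minus strand of chr9:70421505-70421804: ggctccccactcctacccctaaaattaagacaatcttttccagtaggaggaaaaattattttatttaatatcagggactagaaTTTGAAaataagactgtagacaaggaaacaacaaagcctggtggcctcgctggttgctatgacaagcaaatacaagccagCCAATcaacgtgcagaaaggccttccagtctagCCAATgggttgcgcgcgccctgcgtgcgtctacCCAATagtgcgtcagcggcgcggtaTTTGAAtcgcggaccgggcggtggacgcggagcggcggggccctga
Cdk1, minus strand of chr10:69352863-69353162: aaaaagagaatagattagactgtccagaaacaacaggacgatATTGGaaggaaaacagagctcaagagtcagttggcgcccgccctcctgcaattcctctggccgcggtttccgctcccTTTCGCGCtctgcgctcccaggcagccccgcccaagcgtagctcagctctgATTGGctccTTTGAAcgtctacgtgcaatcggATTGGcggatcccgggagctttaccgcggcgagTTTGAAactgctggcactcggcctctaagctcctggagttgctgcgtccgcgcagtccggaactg

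In Mcm6, the E2F letters began 110, 106 and 47 bases before the start. In Ccnb2, the CHR letters lay 167 bases before the start and at base 5 after it, with 3 CCAAT boxes between them. Cdk1 held both kinds, E2F letters 131 bases before the start and CHR letters 71 and 15 bases before it. The table held promoters of 27 of the 37 members, 31 promoters in all. Of the promoters of licensing genes, 4 of 7 held E2F letters (Mcm3, Mcm5, Mcm6 and 1 of 2 for Mcm7), 1 of 7 held CHR letters (Mcm2) and 7 of 7 held a CCAAT box. Of the mitotic promoters, 7 of 9 held CHR letters, 1 of 9 held E2F letters and 9 of 9 held a CCAAT box. None of the 4 promoters of CDK inhibitors and none of the 4 of D cyclins and partner kinases held E2F or CHR letters. Among all 32851 promoters of the table, 2.26% held E2F letters, 17.9% CHR letters and 37.4% a CCAAT box. These matches describe the letters in this window and are not binding sites measured in these hearts.

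Between 29461697 and 35945417 reads per training heart and between 35196993 and 39431030 per sedentary heart were counted on genes. Levels are given as CPM, counts scaled to a library size corrected for composition, and levels of different genes are compared only as TPM, the per-length values of the authors. Genes were called at an FDR (the Benjamini-Hochberg adjusted p of edgeR's quasi-likelihood test over all genes) below 0.1. Of 15454 genes tested, 7.01% were called, 2.75% higher and 4.26% lower in training hearts. Scaled by library totals alone, 1029 were higher and 339 lower, against 425 and 659. Markers of the labelled tissue were present. The summed level of 8 cardiomyocyte genes was between 57070 and 61286 CPM in training and between 60571 and 68362 CPM in sedentary hearts. Of the 8, 1 was above 0 in log2 fold change and 1 was called lower. The summed level of 8 atrial genes was between 5314 and 7904 CPM in training and between 2956 and 7078 CPM in sedentary hearts, with 8 of 8 above 0 in log2 fold change and 3 called higher. The summed level of 8 endothelial genes did not overlap, at 1227 to 1287 CPM in training and 1349 to 1415 CPM in sedentary hearts. Of the 8, 2 were above 0 and 2 were called lower. Of 8 fibroblast genes, 7 were above 0 and 2 called higher, with summed levels of 1475 to 1826 CPM in training and 1282 to 1605 CPM in sedentary hearts. All 6 adipocyte genes were above 0 (median 0.74) and 0 of 5 tested erythroid genes were (median −0.43), with none called and summed levels that overlapped. The part of these shifts in the results on cell cycle genes was not tested.

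Mcm4 was the 1 member called, and it was higher in the training hearts. Of the 37 members, 36 had enough counts to be tested and Bub1 did not. The share called was 2.78% of those tested, under the 7.01% among all genes, and no member was called lower. Of the 36, 21 had a log2 fold change of training over sedentary hearts above 0 and 15 below it, with a median of 0.03 beside 0.00 over all genes tested. Unadjusted p-values were below 0.05 for 5 members (Mcm4, Mcm6, Ccnb2, Cdkn1b and Cdkn2c) of 36, beside 20.0% of all genes. DESeq2 called Mcm4 and Cdkn1b at the same threshold.

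**Figure D1:**
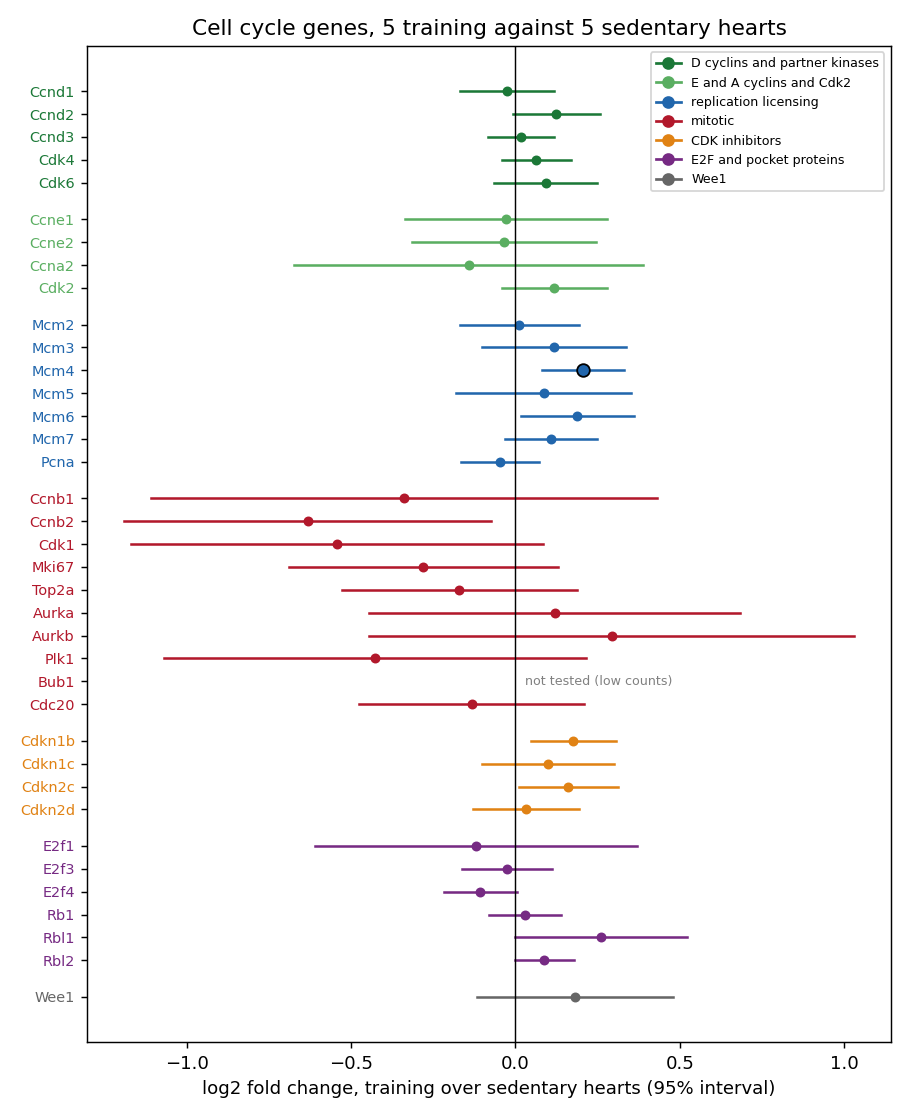
Log2 fold change of training over sedentary hearts for each cell cycle gene (points) with its 95% interval from edgeR (lines), coloured by role; the outlined point is Mcm4, the gene called. Intervals of the G1, licensing and inhibitor genes are mostly narrower than those of the mitotic genes, though that of Ccna2 is wider than those of Cdc20, Top2a and Mki67. Of the mitotic points, 7 of 9 lie left of 0.

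Per length, Cdk4 and the D cyclins stood far above the mitotic genes, while the cyclin E gene Ccne1 (0.673 TPM) and the activator E2f1 (0.357 TPM) lay within the mitotic range. Cdk4 had the highest level, 56.1 ± 3.94 TPM (SD, n = 5) in training and 49.0 ± 2.14 TPM (SD, n = 5) in sedentary hearts. TPM was not corrected for composition, and in the corrected fit the log2 fold change of Cdk4 was 0.06 (edgeR adjusted p = 0.515). Cdk4 was followed, as means over the 10 hearts, by Ccnd3 at 30.7 TPM, Pcna at 22.9 TPM, Ccnd2 at 19.6 TPM, Ccnd1 at 18.2 TPM, Rbl2 at 17.8 TPM and Cdkn1b at 16.0 TPM. Of these neighbours, the ranges of mean ± SD of Ccnd2, Ccnd1 and Rbl2 overlapped in both groups, so their order is not settled. The place of Pcna is not settled either, as TPM comes from RSEM expected counts. For Pcna these were 1.34 times the uniquely mapped counts, against 0.967 for Ccnd2, 0.971 for Ccnd1 and 0.970 for Rbl2. Mcm genes lay between 1.27 TPM (Mcm5) and 5.21 TPM (Mcm7). All 10 mitotic genes were below 1 TPM, from 0.151 TPM for Bub1 to 0.963 TPM for Cdc20, and 23 of the 37 members reached 1 TPM. The mitotic genes had between 3 and 231 counts per library, and the standard errors of their log2 fold changes were between 0.159 and 0.358. For the 5 D cyclin and partner kinase genes, with 446 to 4436 counts, they were between 0.047 and 0.073.

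**Figure D2:**
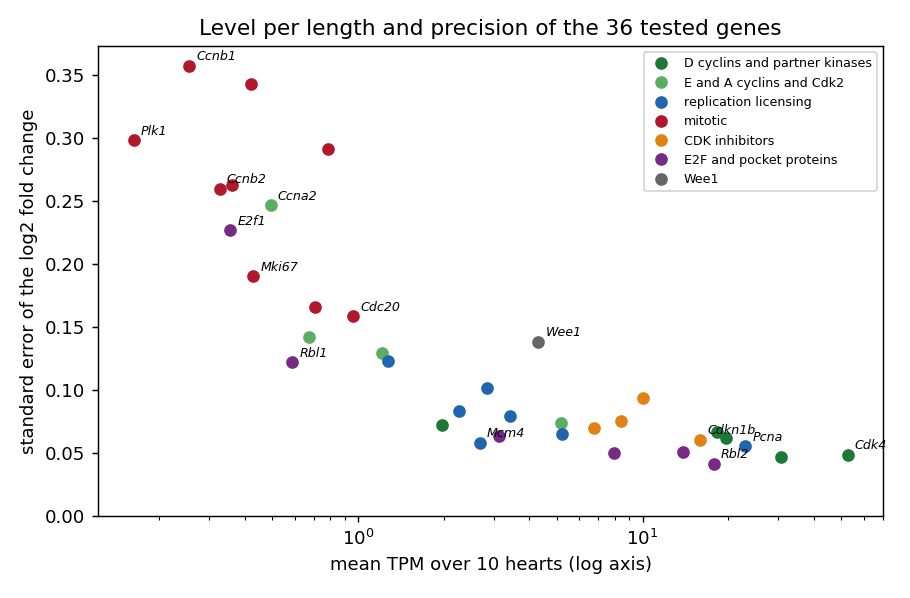
Mean TPM over the 10 hearts (horizontal, log axis) against the standard error of the edgeR log2 fold change (vertical) for the 36 tested genes, coloured by role. The 9 mitotic genes lie below 1 TPM with standard errors of at least 0.159, and Cdk4 lies at 52.5 TPM.

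The D cyclins and their kinases, which act first on the pocket proteins, did not pass the test. Of these 5 genes, 4 had log2 fold changes above 0, with a median of 0.06 and edgeR adjusted p-values from 0.281 upwards. Ccnd2 (ENSMUSG00000000184, chromosome 6 of GRCm39, 127102125 to 127129156), the D cyclin with the smallest p of the set, was at 97.9, 117, 119, 115 and 112 CPM in training hearts 1 to 5. In sedentary hearts 1 to 5 it was at 106, 113, 94.1, 94.97 and 106 CPM. Training heart 1 lay among the sedentary hearts and sedentary heart 2 among the training hearts. With a standard error (SE) of 0.062, the log2 fold change of Ccnd2 was 0.12 (edgeR adjusted p = 0.281). Cdk4 (ENSMUSG00000006728, chromosome 10, 126895180 to 126903789), the kinase of the D cyclins, was at 35.1, 33.5, 36.2, 32.5 and 34.1 CPM in the training hearts. The sedentary hearts had 31.7, 31.0, 31.8, 34.0 and 35.6 CPM of Cdk4, within which all but the highest training heart fell. Its log2 fold change of 0.06 had a 95% interval from −0.04 to 0.17 (edgeR adjusted p = 0.515). Ccnd1 had a log2 fold change of −0.02 (SE 0.067), which was 0.03 with library totals alone, and Ccnd3 of 0.02 (SE 0.047). Cdk6, which pairs with the same cyclins, had 0.09 (SE 0.073).

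Among the E and A cyclins and Cdk2, which drive entry into and passage through S phase, no gene was called. Cdk2 (chromosome 10, 128533796 to 128540963) had both the highest level per length of the 4, at 5.17 TPM, and the smallest p. It was at 11.5, 11.1, 11.2, 12.1 and 12.9 CPM in training and 12.3, 10.7, 9.26, 10.9 and 11.2 CPM in sedentary hearts. Only training heart 5 exceeded the highest sedentary heart. The difference was 0.12 on the log2 scale (SE 0.074, edgeR adjusted p = 0.41). The E cyclins Ccne1 and Ccne2 both had a log2 fold change of −0.03, with standard errors of 0.142 and 0.13, and both were at 0.02 with library totals alone. Ccna2, the cyclin of S phase and early mitosis, had −0.14 with a standard error of 0.247, and its 0.494 TPM lay in the range of the mitotic genes.

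Replication licensing held the called gene. The Mcm2 to Mcm7 proteins form the ring helicase that is loaded on origins in G1, and Pcna is the sliding clamp of the replication fork. Of these 7 genes, 6 had log2 fold changes above 0, with a median of 0.11, and 1 was called higher. Mcm4 (ENSMUSG00000022673, chromosome 16 of GRCm39, 15440211 to 15455264) was at 9.62, 9.16, 10.4, 9.87 and 10.1 CPM in training hearts 1 to 5. In the sedentary hearts it was at 8.79, 8.76, 8.57, 8.42 and 8.00 CPM. The lowest training heart lay above the highest sedentary heart, which was so, in either direction, for 5.06% of all genes tested and for no other member. Group values were 9.82 ± 0.460 CPM in training and 8.51 ± 0.322 CPM in sedentary hearts (SD, n = 5 each). On the log2 scale Mcm4 rose by 0.21 (SE 0.058, 95% interval 0.081 to 0.331, edgeR adjusted p = 0.0697). Whole hearts were sequenced, so more cells of a type with Mcm4 RNA and more Mcm4 RNA per cell cannot be told apart. When single hearts were removed in turn, Mcm4 passed in 3 of 10 fits, those lacking training mouse 1, training mouse 2 or sedentary mouse 1, and its edgeR adjusted p ranged from 0.0552 to 0.156. With the atrial score as a covariate the log2 fold change was 0.16 with a larger SE of 0.078 (edgeR adjusted p = 0.458), in a fit that called 90 genes in all, and with no filter on low counts it was 0.20 (edgeR adjusted p = 0.181).

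Mcm6 (chromosome 1, 128259311 to 128287516), whose promoter is printed above, had the next smallest p of the licensing genes. Training hearts had 8.80, 9.28, 10.0, 9.80 and 11.2 CPM of Mcm6 and sedentary hearts 9.14, 8.99, 9.16, 7.43 and 8.30 CPM. Training heart 1 lay within the sedentary range and the other 4 above it. Mcm6 had a log2 fold change of 0.19 (SE 0.08, 95% interval 0.017 to 0.36, edgeR adjusted p = 0.207). Mcm3 and Mcm7 had log2 fold changes of 0.12 and 0.11, Mcm5 of 0.09 and Mcm2 of 0.01, with edgeR adjusted p-values from 0.388 to 0.952. Pcna (chromosome 2, 132091082 to 132095234) stood the other way, at 22.5, 21.8, 22.0, 23.1 and 21.3 CPM in training and 20.5, 22.0, 22.7, 24.8 and 24.3 CPM in sedentary hearts. The training values of Pcna lay inside the sedentary range, and the log2 fold change was −0.05 (SE 0.056, 95% interval −0.17 to 0.073, edgeR adjusted p = 0.696), or 0.0084 with library totals alone. Summed over the 6 Mcm genes, training hearts had 42.7, 43.2, 46.9, 44.9 and 49.0 CPM and sedentary hearts 42.7, 41.5, 41.0, 38.3 and 43.6 CPM. Training hearts 3, 4 and 5 were above all sedentary hearts and training hearts 1 and 2 were not.

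**Figure D3:**
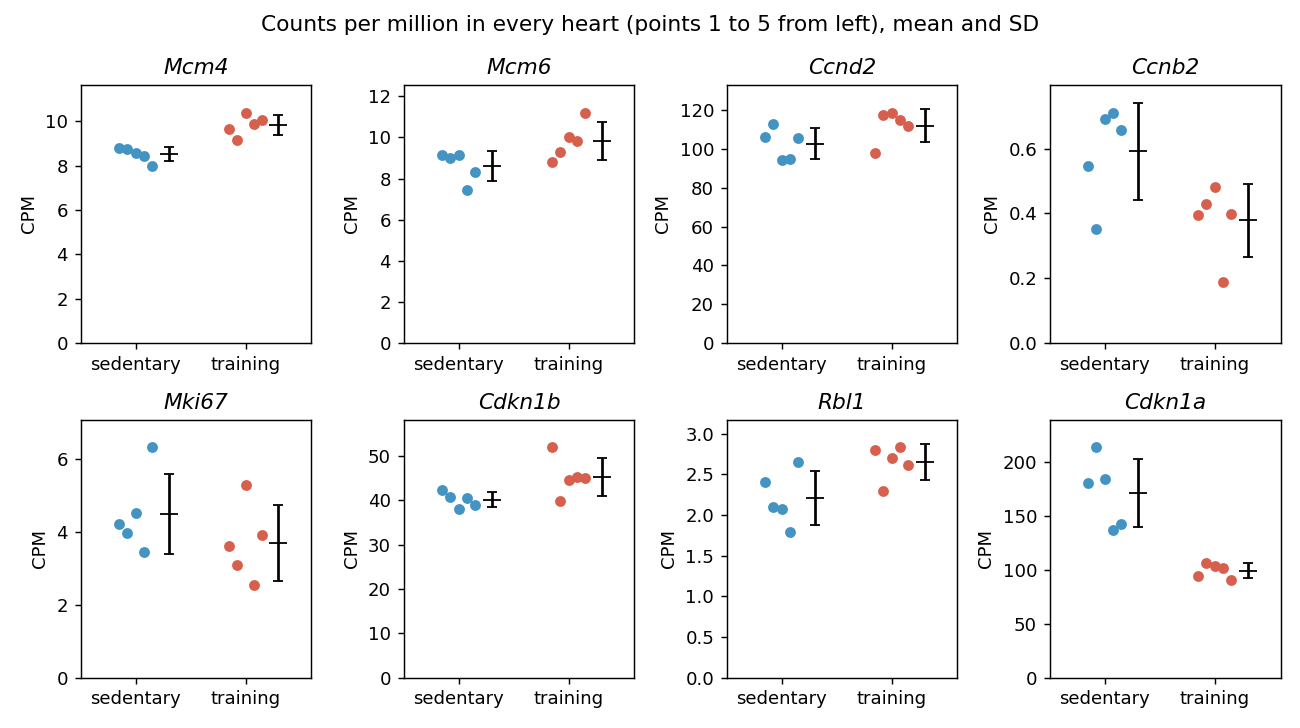
Level in CPM of 8 cell cycle genes in every heart (points, mouse 1 to 5 from left to right in each group), with the mean and SD (black) of the 5 sedentary and the 5 training hearts; each axis starts at 0. The groups do not overlap for Mcm4, where the training hearts sit between 9.16 and 10.4, or for Cdkn1a, and overlap for the other 6.

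None of the mitotic genes was called, and they were low in both groups. These genes encode cyclin B and its kinase Cdk1, the kinases Aurka, Aurkb and Plk1, the anaphase activator Cdc20, the spindle checkpoint kinase Bub1, topoisomerase Top2a and the proliferation marker Mki67. Of the 9 tested, 7 had log2 fold changes below 0, with a median of −0.28, and 1 had an unadjusted p below 0.05. In TPM, which was not corrected for composition, Ccnb1, Top2a and Cdc20 of these 7 had slightly higher means in training hearts. DESeq2 called 0 of the 9 at the same threshold, but gave Ccnb2, with 174 counts over all hearts, no adjusted p. It leaves genes of low mean count out of its adjustment, and Ccnb1 and Plk1 had fewer counts still, 118 and 140. For such genes the absence of a DESeq2 call was set by their counts and is no result. Ccnb2 (ENSMUSG00000032218, chromosome 9, 70314966 to 70328874), a B cyclin whose promoter with 2 CHR matches is printed above, was the one with the smallest p. Training hearts had 0.396, 0.429, 0.482, 0.187 and 0.398 CPM of Ccnb2 and sedentary hearts 0.547, 0.350, 0.692, 0.711 and 0.658 CPM, from 6 to 26 counts per library. Sedentary heart 2 lay among the training hearts and the other 4 sedentary hearts lay above them all. The log2 fold change of Ccnb2 was −0.63 (SE 0.26, 95% interval −1.19 to −0.073, edgeR adjusted p = 0.196). Cdc20 (chromosome 4, 118290098 to 118294610), the mitotic gene with the highest level per length, was at 1.36, 1.52, 1.42, 1.09 and 1.66 CPM in training and 1.54, 1.43, 1.57, 1.19 and 1.97 CPM in sedentary hearts. The groups overlapped almost wholly, and the difference was −0.13 on the log2 scale (SE 0.159, edgeR adjusted p = 0.697).

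Mki67, the antigen used to count cycling cells, was at 3.62, 3.09, 5.30, 2.55 and 3.91 CPM in training and 4.22, 3.97, 4.52, 3.44 and 6.33 CPM in sedentary hearts. Its difference of −0.28 on the log2 scale had a 95% interval from −0.69 to 0.13 (edgeR adjusted p = 0.451), which leaves room for a fall as well as a small rise. Cdk1, Plk1 and Ccnb1 had log2 fold changes of −0.54, −0.43 and −0.34, Top2a of −0.17, and the aurora kinases stood the other way with 0.12 for Aurka and 0.29 for Aurkb. The standard errors of these 6 were between 0.166 and 0.358, and the 95% interval of each included 0. With a heart left out, Cdk1 ranged from −0.88 (without training heart 3) to −0.39 (without training heart 4), Plk1 from −0.75 (without training heart 1) to −0.29 (without training heart 4), and Ccnb1 from −0.80 (without training heart 3) to −0.14 (without training heart 5). Mki67 ranged from −0.45 (without training heart 3) to −0.13 (without sedentary heart 5), and Top2a from −0.33 to −0.07 without the same hearts. Bub1, left out of the test with 4 to 19 counts per library, was at 0.113, 0.115, 0.214, 0.280 and 0.133 CPM in training and 0.0994, 0.380, 0.293, 0.256 and 0.521 CPM in sedentary hearts.

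For many mitotic genes the same heart was the highest or lowest of its group, though covariation was not measured. Training heart 3 was the highest training heart for 6 of the 10 genes and training heart 4 the lowest for 6, while sedentary heart 5 was the highest sedentary heart for 7. Other sets held such hearts too, with training heart 1 the lowest training heart for 4 of 7 licensing genes. Likewise, sedentary heart 4 was the lowest sedentary heart for 4 of 6 E2F and pocket protein genes. The summed level of the 10 mitotic genes was 10.2, 8.85, 14.4, 7.78 and 10.3 CPM in training hearts 1 to 5 and 12.1, 10.3, 12.4, 9.96 and 16.2 CPM in sedentary hearts 1 to 5. Training heart 3 lay above every sedentary heart but heart 5, and the spread within each group was wider than the distance between the groups. Training heart 3 also had the highest summed level of 8 fibroblast genes of all hearts (1826 CPM) and the highest of 8 macrophage genes among the training hearts (361 CPM). Its atrial sum was the highest (7904 CPM) and its cardiomyocyte sum the lowest (57070 CPM) of all hearts. Training heart 4, the lowest in the mitotic sum, had the next highest fibroblast sum of the training hearts (1576 CPM). Sedentary heart 5 was unremarkable in the fibroblast and macrophage lists, at 1432 and 308 CPM. The part of these cell types in the mitotic levels was not tested. Without training heart 3 the median of the mitotic genes was −0.45, and without sedentary heart 5 it was −0.13.

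The 4 CDK inhibitors among the members, placed with the mitotic genes in the comparison, had log2 fold changes above 0 as most licensing genes did. Cdkn1a, a CDK inhibitor that is not a member, was called lower, at −0.79 (edgeR adjusted p = 0.00504), and is described below. Cdkn1b and Cdkn1c belong to the family that binds cyclin-CDK complexes, and Cdkn2c and Cdkn2d to the INK4 family that binds Cdk4 and Cdk6. All 4 had log2 fold changes above 0, with a median of 0.13, and edgeR called 0 of them, with 2 at an unadjusted p below 0.05 and 1 called by DESeq2. Cdkn1b (ENSMUSG00000003031, chromosome 6, 134897364 to 134902476), the most abundant of them per length and the one with the smallest p, was at 51.9, 39.8, 44.7, 45.1 and 45.04 CPM in training hearts. In sedentary hearts it was at 42.3, 40.7, 38.0, 40.6 and 38.8 CPM. Training heart 2 lay within the sedentary range and the other 4 training hearts above it. Group values were 45.3 ± 4.31 CPM in training and 40.1 ± 1.70 CPM in sedentary hearts (SD, n = 5 each), a log2 fold change of 0.18 (SE 0.061, 95% interval 0.047 to 0.307, edgeR adjusted p = 0.128). In DESeq2 the adjusted p of Cdkn1b was 0.0785, and without training heart 2 it was 0.0466 in edgeR. Without training heart 1, the highest, the log2 fold change was 0.12 (edgeR adjusted p = 0.2), and with the atrial score as a covariate it was 0.13 (edgeR adjusted p = 0.587). Cdkn2c had a log2 fold change of 0.16 (SE 0.07, edgeR adjusted p = 0.219), Cdkn1c of 0.10 and Cdkn2d of 0.03. All 2738 bases of the Cdkn1c gene overlap a non-coding gene annotated on the same strand. An effect of this on its count was not tested. Its RSEM expected counts were 0.951 times its unique counts, and those of Cdkn1b 0.952 times.

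Among the E2F and pocket protein genes, 3 were above 0 and 3 below, with a median of 0.00 and none called. Rbl2 (chromosome 8, 91796664 to 91850492), the pocket protein of resting cells and the most abundant of this set, was at 79.6, 75.9, 72.6, 75.1 and 78.4 CPM in training hearts. In sedentary hearts Rbl2 was at 74.9, 75.1, 70.9, 69.6 and 68.3 CPM. Training heart 3 lay among the sedentary hearts and training heart 4 level with the highest of them. Its log2 fold change of 0.09 had a standard error of 0.042 (edgeR adjusted p = 0.253). Rbl1 (chromosome 2, 156987813 to 157046475), the pocket protein of cycling cells, was at 2.80, 2.29, 2.704, 2.83 and 2.62 CPM in training and 2.41, 2.10, 2.08, 1.79 and 2.66 CPM in sedentary hearts. The groups overlapped through training heart 2 and sedentary heart 5. Rbl1 differed by 0.26 on the log2 scale (SE 0.122, edgeR adjusted p = 0.252). Rb1, the retinoblastoma protein gene, had 0.03 (SE 0.051). E2f4, the E2F factor that works with pocket proteins as a repressor, had −0.11 (SE 0.051, edgeR adjusted p = 0.266), and 0 of 5 training hearts exceeded the sedentary mean. E2f1 and E2f3, the activators, had −0.12 and −0.02, the latter 0.03 with library totals alone.

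Wee1 (chromosome 7, 109721148 to 109747101), the kinase that holds Cdk1 inactive before mitosis, was at 16.5, 12.5, 16.1, 15.0 and 14.9 CPM in training hearts. In sedentary hearts it was at 10.6, 12.5, 11.2, 19.3 and 12.6 CPM. Sedentary heart 4 was the highest of all 10 hearts, and the other sedentary hearts lay at or below 12.6 CPM. With all hearts the log2 fold change was 0.18 (SE 0.139, edgeR adjusted p = 0.511), and without sedentary heart 4 it was 0.36 (edgeR adjusted p = 0.0581), a call that rests on leaving out that heart.

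Set against each other as the G1 and licensing genes on one side and the mitotic genes and CDK inhibitors on the other, the sides had medians of 0.07 over 16 genes and −0.13 over 13 tested genes, a difference of 0.21 on the log2 scale. Within the second side the mitotic genes had a median of −0.28 and the 4 inhibitors, which do not include Cdkn1a, one of 0.13. As a mean per heart, relative to the sedentary mean, the first side minus the second was 0.08, 0.35, −0.11, 0.44 and 0.23 in training hearts 1 to 5. The sedentary hearts had −0.05, 0.13, −0.05, 0.10 and −0.13. Training hearts 2, 4 and 5 lay above every sedentary heart, heart 1 within and heart 3 near the bottom of the sedentary range. The difference of medians was 0.01 when genes needed at least 10 counts in every library, which removed 5 of the mitotic genes, and 0.10 with counts thinned to the smallest library. It was 0.09 with the atrial score as a covariate and between 0.13 and 0.29 when each heart was left out. It is a description with no test.

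**Figure D4:**
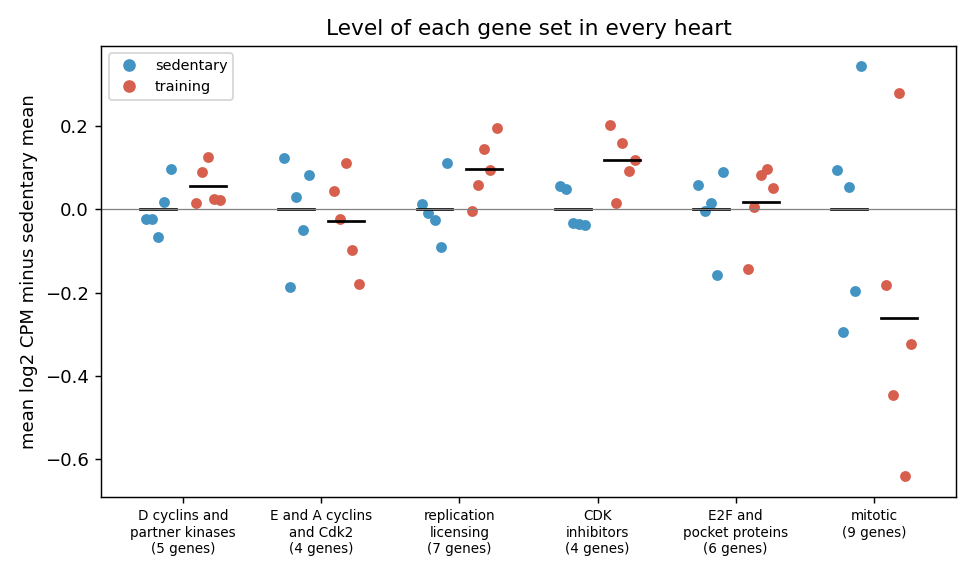
Mean log2 CPM of each gene set in every heart (points, mouse 1 to 5 from left to right), minus the mean of the sedentary hearts, with the group mean as a bar. The 5 training hearts spread from −0.64 to 0.28 for the mitotic genes and from −0.004 to 0.20 for the licensing genes, and the groups overlap in every set.

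The other genes of the cell cycle were taken from a list of 94 origin, fork, nucleotide, E2F-DREAM, mitotic and checkpoint genes. Of these, 89 were tested and 3 were called, 1 higher and 2 lower, which is 3.37% beside 7.01% of all genes. Cdkn1a (chromosome 17, 29309936 to 29319701), which encodes the CDK inhibitor p21 and is a target of p53, fell most clearly. It was at 94.1, 106.7, 104, 102 and 90.2 CPM in training and 180.1, 214, 184, 137 and 143 CPM in sedentary hearts. The highest training heart was below the lowest sedentary heart, at 99.3 ± 6.88 CPM against 171 ± 31.8 CPM (SD, n = 5 each). Cdkn1a fell by 0.79 on the log2 scale (SE 0.103, edgeR adjusted p = 0.00504), and it passed in 10 of 10 fits with a heart removed and with the atrial score as a covariate (edgeR adjusted p = 0.0606). Per length this inhibitor, at 78.3 TPM, was above every member. The 4 inhibitors among the members had log2 fold changes above 0, but edgeR called 0 of them, and Cdkn2d turned below 0 in some fits. Cdkn2b, another inhibitor of the list, ranged from −0.228 to 0.095 with a heart left out and was not called.

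Ccng1 (chromosome 11, 40639377 to 40646148), a cyclin G gene that also responds to p53, was at 929, 946, 854, 921 and 942 CPM in training and 1041, 1077, 1061, 1008 and 950.4 CPM in sedentary hearts. All training hearts lay below all sedentary hearts, training heart 2 by a narrow margin, and Ccng1 fell by 0.16 on the log2 scale (SE 0.047, edgeR adjusted p = 0.074). Rbbp4 (chromosome 4, 129184867 to 129229170), a histone chaperone of the DREAM complex, was at 77.9, 72.6, 77.1, 70.4 and 72.3 CPM in training and 69.7, 69.4, 67.5, 64.8 and 63.1 CPM in sedentary hearts. Its groups did not overlap either, and Rbbp4 rose by 0.15 on the log2 scale (SE 0.044, edgeR adjusted p = 0.0832). The call of Ccng1 was kept in 4 and that of Rbbp4 in 2 of 10 fits with a heart removed, and with the atrial score as a covariate, where SEs were larger, the log2 fold changes were −0.15 and 0.12 (edgeR adjusted p = 0.395 and 0.472). Ccng1 was also not called with library totals alone (−0.11, edgeR adjusted p = 0.2), nor Rbbp4 with no filter (edgeR adjusted p = 0.182) or counts of both strands (edgeR adjusted p = 0.108). DESeq2 called these 3 and also Gmnn, the licensing inhibitor geminin, with a log2 fold change of −0.24 (edgeR adjusted p = 0.12), and Rfc3, a clamp loader subunit, with 0.38 (edgeR adjusted p = 0.129).

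Genes of the fork in these lists had mostly positive and genes of mitosis mostly negative fold changes. They were measured in the same hearts as the members, so they are not a second test of the members. Of 26 origin firing and fork genes, 21 were above 0, with a median log2 fold change of 0.07, and 0 were called by edgeR, 4 had an unadjusted p below 0.05 and DESeq2 called 1. All 6 nucleotide supply genes were above 0, with a median of 0.09. Of 21 tested genes of the mitotic apparatus and checkpoint, 16 were below 0, with a median of −0.08 and a median standard error of 0.19. Of these, 0 were called by either tool, with 1 unadjusted p below 0.05, though DESeq2 leaves genes of low mean count out of its adjustment. Origin recognition and loading genes were divided, with 5 of 9 above 0 and a median of 0.01. Over all genes tested the median was 0.00, with 7738 above 0 and 7716 below. These medians are descriptions with no test.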

How the data were processed

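Poly-A RNA was made into directional libraries, 1 per heart, and read from 1 end in a shared pool. Per the labels, STAR 2.7.10a was run against GRCm39, and the authors deposited its raw count of unique reads for every gene, with no scaling or filter, beside RSEM 1.3.3 expected counts, TPM and effective lengths. Counts of the reverse strand (95.4% of stranded counts, median) were tested, without rows that name no gene (24.3% to 26.1% of reads). GENCODE M39 gave symbols and positions for 56017 of 56748 identifiers.

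In R 4.3.3, edgeR 4.0.16 filtered genes by filterByExpr, scaled libraries by TMM and compared the labelled groups by its quasi-likelihood test, with Benjamini-Hochberg adjustment over all genes. Log2 CPM had a prior count of 2. The steps were tested on simulated data. Every heart's value is given for called genes and, per set, for the member with the highest TPM and that with the smallest p. Mcm6, Mki67 and Bub1 were added after their values were seen. Members and lists were chosen with earlier results of these data known. Promoters are on GRCm38.p6, counts on GRCm39.

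Alternatives were DESeq2 1.42.0, its size factors, library totals alone, no filter, 10 counts in every library, rounded expected counts, both strands, no mitochondrial DNA genes, thinned counts, the mouse number as a block, an atrial marker score as covariate, and each heart left out. Residuals of hearts with the same mouse number correlated between −0.097 and 0.159, so the numbers were not used as pairs. Replicate libraries varied beyond counting error (chi-square per degree of freedom 6.02 to 27.8), so errors are between hearts.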

Additional observations from a re-analysis of the deposited data

Results flagged for a closer look

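Of 74 groups of 5 hearts examined, 3 held a heart far from the other 4 by Dixon's criterion, and chance flags about 1 in 20 groups. Mcm3 was at 4.76 CPM in training heart 1 and between 5.96 and 6.27 CPM in the other training hearts. Ccnb2 was at 0.187 CPM in training heart 4 and between 0.396 and 0.482 CPM in the others, a level that rests on few counts. Wee1 was at 19.3 CPM in sedentary heart 4 and between 10.6 and 12.6 CPM in the other sedentary hearts.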

How the results depend on the processing

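Of the 36 tested members, 20 kept their direction and their side of the threshold in every alternative and 13 turned direction in at least 1. Against 1084 genes, 1 member and 3 other cell cycle genes called, an FDR below 0.05 gave 505, 0 and 1, DESeq2 gave 1473, 2 and 5, library totals alone 1368, 2 and 6, no filter 1065, 0 and 3, and the atrial score as a covariate 90, 0 and 1. Leaving out each heart gave 512 to 1490 genes, 0 to 3 members and 1 to 5 other genes, a member median from −0.01 to 0.05 and a difference of the G1 and licensing from the mitotic and inhibitor median from 0.13 to 0.29. Without a filter Gmnn (edgeR adjusted p = 0.0714) was called in place of Rbbp4. The 3 members called without sedentary heart 1 were Mcm4, Cdkn1b and Bub1, which passed the filter there with a log2 fold change of −1.07 (edgeR adjusted p = 0.0932). That call of Bub1 rests on leaving out the heart, which had 4 counts of it against 9 to 19 in the other sedentary hearts. Bub1 was called in 1 of the 6 fits with a heart removed that tested it. With all hearts and no filter it was not called (edgeR adjusted p = 0.404). With the mouse number as a replicate block, 1137 genes, 1 member and 3 other cell cycle genes were called; the member was Cdkn1b (adjusted p = 0.099 from edgeR) in place of Mcm4 (0.123), Gmnn (0.078) was called in place of Ccng1 (0.118), and the numbers were not shown to pair the hearts. Library totals shifted the median of all genes by 0.05 and turned the split to 1029 higher and 339 lower. Then Ccnd1 (0.031), Ccne1 (0.023), Ccne2 (0.016), Pcna (0.0084), E2f3 (0.030) turned above 0. The atrial score turned Ccnd1 (0.075), Cdc20 (0.0086), Cdkn2d (−0.020), counts of both strands Ccnd3 (−0.010), Pcna (0.011), and thinned counts Ccne2 (0.049). Leaving out 1 heart turned the direction of Ccnd1 (−0.066 to 0.0069), Ccnd3 (−0.012 to 0.036), Ccne1 (−0.079 to 0.031), Ccne2 (−0.112 to 0.030), Ccna2 (−0.399 to 0.013), Mcm2 (−0.030 to 0.055), Aurka (−0.0097 to 0.298), Aurkb (−0.063 to 0.491), Cdkn2d (−0.016 to 0.078), E2f1 (−0.226 to 0.049), E2f3 (−0.062 to 0.017). Where no value shows it, the cause was not tested. The mitotic genes had as few as 3 counts per library, and counting error and variation between hearts were not separated for them.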

Other observations

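RSEM expected counts summed over the 10 hearts were 1.34 times the uniquely mapped counts for Pcna and 1.28 times for Ccnb1. For Mcm7 the ratio was 1.03, and for the other members it lay between 0.843 and 0.999. Cdk1 shares 624 bases with a processed pseudogene annotated on the same strand.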
